A study of Mus musculus with 28 samples.

Results

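The 6 marker genes of cardiac fibroblasts Tcf21, Pdgfra, Ddr2, Lum, Dcn and Postn were followed across the hearts of 28 mice. They were taken by gene symbol, as 6 of 18193 genes with a probe set of their own, and all 11 probe sets annotated to 1 of these genes alone were used, out of 45037 that are not controls of the array. Each heart was read on its own 1-colour array, with 7 animals in each of 4 groups. The groups were del337TR mice given WY14643, untreated del337TR mice, control mice given WY14643 and untreated control mice. The del337TR animals are a deletion strain in a series on resistance to thyroid hormone, and WY14643 is an activator of PPARalpha, a nuclear receptor that switches on fatty acid oxidation genes. The sources used here do not give the receptor and cells that carry the deletion, the background strain, age, dose or duration. All groups were heart tissue. The labels name frozen hearts, and the share of atrial RNA differed between hearts, as given below.

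The fibroblast is the main matrix-producing cell of the heart. The transcription factor Tcf21 is needed in mouse for epicardial cells to become cardiac fibroblasts, the receptor tyrosine kinase Pdgfra binds platelet-derived growth factors and marks resting fibroblasts, and Ddr2 is a receptor tyrosine kinase that is switched on by fibrillar collagen. Lum and Dcn encode lumican and decorin, small leucine-rich proteoglycans that bind collagen fibrils and set their spacing, and Postn encodes periostin, a matricellular protein that activated fibroblasts and valve cells secrete. In heart tissue the signals of such genes can follow the number of fibroblasts or the RNA made per cell, which cannot be told apart here.

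In mouse (GRCm38.p6, RefSeq) the genes lie at chr10:22817263-22820143 for Tcf21, chr5:75151322-75198206 for Pdgfra, chr1:169972307-170110836 for Ddr2, chr10:97565501-97572703 for Lum, chr10:97479500-97518163 for Dcn and chr3:54359267-54391041 for Postn, so that Lum and Dcn are close neighbours. Tcf21 belongs to the basic helix-loop-helix factors, which bind the E-box, CANNTG. The windows from 250 bases before to 50 bases after the RefSeq start sites were searched for Tcf21, Pdgfra, Ddr2 and Postn, the 4 of the 6 genes matched, and not for Lum and Dcn. They are shown for the receptors Pdgfra and Ddr2 and for the second of 2 start sites of Postn, because these hold the matches found. Capitals mark CANNTG, which reads alike on both strands, and TATAAA, searched on both strands, and no match of one overlapped the other.
Pdgfra, chr5:75152001-75152300, plus strand: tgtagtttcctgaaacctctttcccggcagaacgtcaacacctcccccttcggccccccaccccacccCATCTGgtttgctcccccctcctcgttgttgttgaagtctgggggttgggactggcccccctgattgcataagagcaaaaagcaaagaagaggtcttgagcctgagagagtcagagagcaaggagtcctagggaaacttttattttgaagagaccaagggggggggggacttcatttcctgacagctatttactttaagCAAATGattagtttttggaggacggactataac
Ddr2, chr1:170088895-170089194, minus strand: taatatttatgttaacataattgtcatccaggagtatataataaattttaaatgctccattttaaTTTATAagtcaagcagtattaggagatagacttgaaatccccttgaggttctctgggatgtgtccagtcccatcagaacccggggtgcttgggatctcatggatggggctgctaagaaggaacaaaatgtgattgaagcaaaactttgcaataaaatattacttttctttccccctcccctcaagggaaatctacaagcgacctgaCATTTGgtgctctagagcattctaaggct
Postn, chr3:54360857-54361156, plus strand: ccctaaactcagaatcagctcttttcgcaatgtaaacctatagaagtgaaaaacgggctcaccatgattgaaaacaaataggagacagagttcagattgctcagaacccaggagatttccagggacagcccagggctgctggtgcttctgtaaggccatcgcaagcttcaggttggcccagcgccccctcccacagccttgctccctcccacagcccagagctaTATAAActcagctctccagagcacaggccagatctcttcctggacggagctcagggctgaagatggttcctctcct
The Pdgfra window held 2 E-boxes, CATCTG and CAAATG, and the Ddr2 window held 1, CATTTG, with a TATAAA read on the opposite strand. The Postn window held TATAAA 26 bases before the start site and no E-box, and the Tcf21 window and the other Postn window held neither motif. Of all 32851 windows of this length, 72.3% held an E-box and 13.6% held TATAAA, so an E-box is common in such windows, and the matches are a description of letters rather than of binding.

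Whole-array values that bear on the members were as follows. Median signals of the arrays ran from 60.0 to 77.8. Sex, read from Xist and Eif2s3y, was unequal between groups, with 1 female and 6 males among treated del337TR mice, 4 and 3 among untreated del337TR mice, 3 and 4 among treated controls and 2 and 5 among untreated controls. The signal of Myl4, which encodes a light chain of atrial myosin, ran from 165.7 to 14212.5 in treated del337TR hearts, from 707.2 to 13859.6 in untreated del337TR hearts, from 134.4 to 8124.7 in treated control hearts and from 106.9 to 9488.6 in untreated control hearts, so the share of atrial RNA varied within each group. The signals are linear and globally scaled, and the number of arrays limited the precision.

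Tcf21 was highest in untreated del337TR hearts. Its brighter probe set, 1417447_at, had a lowest, median and highest signal of 393.6, 504.9 and 533.3 in treated del337TR hearts and of 523.6, 592.1 and 1123.4 in untreated del337TR hearts. In control hearts it had 374.0, 402.1 and 577.4 with WY14643 and 386.2, 496.4 and 670.8 without. All 7 untreated del337TR hearts lay above the median of the untreated controls, and 3 of the 7 lay above every untreated control, but the groups overlapped. With WY14643, 6 of 7 del337TR hearts lay below every untreated del337TR heart. The highest of these 6 did so only narrowly, at 523.5 against 523.6 in the lowest untreated heart. The high value of 1123.4 came from replicate 6 of the untreated del337TR group, and the next was 763.6. The dimmer probe set of Tcf21, 1458887_at, read between 49.5 and 113.0 over all hearts, and its group means of 88.1 ± 20.8 (SD, n = 7) for treated del337TR, 86.3 ± 10.7 for untreated del337TR, 78.9 ± 20.8 for treated controls and 84.6 ± 17.2 for untreated controls did not show the order of the brighter one.

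Of the receptors, Pdgfra had the widest spread. Its brightest probe set, 1421917_at, had a lowest, median and highest signal of 509.3, 777.7 and 1235.5 in treated del337TR hearts and of 736.2, 1041.6 and 1280.3 in untreated del337TR hearts. In control hearts it had 409.3, 626.0 and 1034.0 with WY14643 and 458.7, 833.7 and 975.9 without. In 4 of 7 untreated del337TR hearts the signal was above that of every untreated control, and the other 3 fell within the control range. The 2 dimmer probe sets of Pdgfra had means near each other in all groups, for example 169 ± 31.0 (SD, n = 7), 170 ± 25.5, 159 ± 36.2 and 173 ± 28.8 for 1421916_at in treated del337TR, untreated del337TR, treated control and untreated control hearts. Ddr2, the collagen receptor, was the steadier of the pair. Its probe set 1455688_at averaged 242 ± 34.4 (SD, n = 7) in treated and 245 ± 30.0 in untreated del337TR hearts, against 226 ± 28.2 in treated and 242 ± 46.5 in untreated controls, with all 28 values between 172.8 and 317.2 and all groups overlapping.

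**Figure D1:**
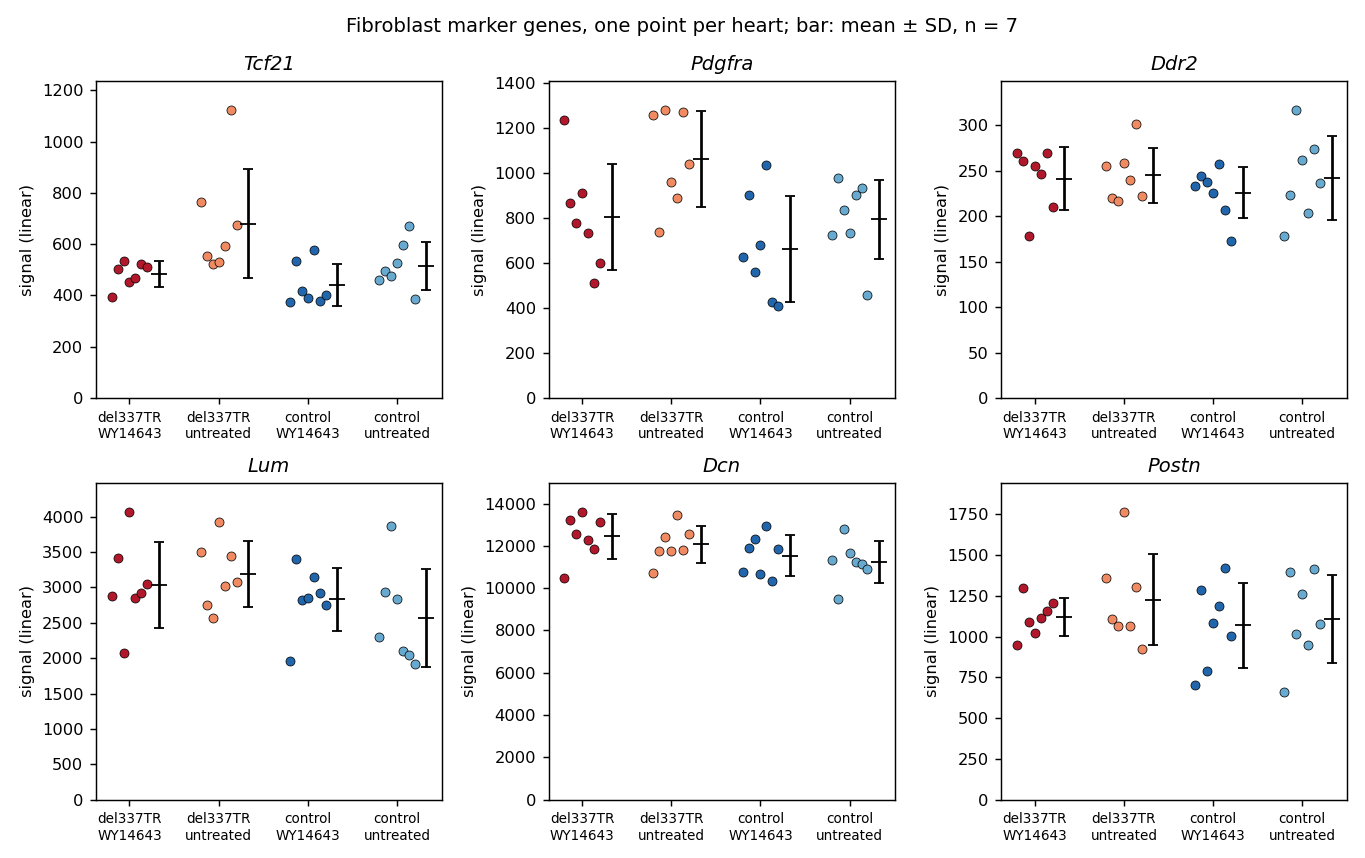
Linear signal of the brightest probe set of each gene in each of the 28 hearts, by group, with the mean and SD (n = 7) beside the points. Tcf21 and Pdgfra stand highest in untreated del337TR hearts (medians 592.1 and 1041.6), but the ranges of the compared groups overlap for every gene. Postn is spread least in treated del337TR hearts (SD 115).

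Of the matrix genes, Lum had a lowest, median and highest signal of 2066.2, 2917.0 and 4071.5 in treated del337TR hearts and of 2574.4, 3081.0 and 3927.7 in untreated del337TR hearts. In control hearts it had 1965.5, 2843.6 and 3394.2 with WY14643 and 1915.3, 2294.1 and 3870.0 without. All 7 untreated del337TR hearts lay above the median of the untreated controls, and the groups overlapped, with control replicate 3 at 3870.0. Dcn varied least. Its bright probe set 1449368_at averaged 12442 ± 1057 (SD, n = 7) in treated and 12064 ± 863 in untreated del337TR hearts, against 11531 ± 973 in treated and 11227 ± 979 in untreated controls, and its highest value over all hearts was 1.43 times its lowest. This probe set lay between the 99.6th and the 99.9th percentile of its array in every heart. The other Dcn probe set, 1441506_at, was dim, from 9.7 to 72.3, and carried little information. Postn averaged 1120 ± 115 (SD, n = 7) in treated and 1226 ± 281 in untreated del337TR hearts, against 1068 ± 258 in treated and 1109 ± 269 in untreated controls, with single hearts from 659.2 to 1766.1 in the series as a whole.

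Untreated del337TR hearts were first set against untreated control hearts, which asks what the deletion strain differs in before treatment. The brightest probe sets of all 6 genes stood above 0, with a median log2 difference of 0.25, against a median of 0.00 and 50.3% above 0 over 18193 genes. Such a count is a description, since the 6 genes were read in the same hearts and are not separate observations. None of the 11 probe sets passed in limma's fit of the whole array (adjusted p = 0.999 for each), where 0.00222% of all probe sets were called, and in none did the groups separate, as they did in 0.0688% of all. At an unadjusted p under 0.05 by limma there were 2 probe sets, against 4.01% of all. These were Tcf21 (0.37 ± 0.15, SE, n = 7 per group, 95% interval 0.055 to 0.68) and Lum (0.34 ± 0.16, interval 0.018 to 0.66). Pdgfra stood at 0.43 ± 0.22 (interval -0.014 to 0.87), Postn at 0.16 ± 0.17 (interval -0.19 to 0.51), Dcn at 0.11 ± 0.079 (interval -0.057 to 0.27) and Ddr2 at 0.031 ± 0.12 (interval -0.22 to 0.28). Without replicate 6 of the untreated del337TR group the Tcf21 difference was 0.24. Among males only, 3 against 5, Tcf21 stood at 0.099 ± 0.17, Pdgfra at 0.37 ± 0.29 and Lum at 0.32 ± 0.19.

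The same strains under WY14643 were compared in 14 other hearts, so these values share no array with those without treatment. Again the brightest probe sets of all 6 genes stood above 0, with a median of 0.11, against a median of 0.02 and 53.6% above 0 over all genes. Of 11 probe sets none passed limma's test (lowest adjusted p = 0.726), none had an unadjusted p under 0.05, where 8.86% of all probe sets did, and no groups separated, as in 0.107% of all. The test called 0% of all probe sets in this comparison. The differences ran from 0.09 ± 0.16 (SE, n = 7 per group) for Lum to 0.31 ± 0.22 for Pdgfra, with Tcf21 at 0.15 ± 0.15, Dcn at 0.11 ± 0.079, Postn at 0.10 ± 0.17 and Ddr2 at 0.094 ± 0.12. The interval for Lum, from -0.23 to 0.41, holds both 0 and the difference seen without treatment. With each array centred on its median, all 6 stayed above 0 and their median was 0.025, while the median of all genes was then -0.06.

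WY14643 in del337TR hearts was compared with no treatment to ask what the activator does in the mutant strain. Tcf21 stood lowest in this comparison, at -0.45 ± 0.15 (SE, n = 7 per group, limma adjusted p = 0.767, 95% interval -0.76 to -0.14), and was the 1 probe set of 11 with an unadjusted p under 0.05, where 5.78% of all had one. Pdgfra stood at -0.43 ± 0.22 (interval -0.87 to 0.018). The other genes were near 0, with Postn at -0.11 ± 0.17, Lum at -0.082 ± 0.16, Ddr2 at -0.026 ± 0.12 and Dcn at 0.043 ± 0.079. Of the 11 probe sets 3 stood above 0, against 53.1% of all. None passed limma's test, which called 0% of all, and none had groups that separated, against 0.0733% of all. The untreated del337TR hearts in it are those of the strain comparison without WY14643, so the high Tcf21 and Pdgfra values there enter both. Among males only, 6 against 3, Tcf21 stood at -0.19 ± 0.17 and Pdgfra at -0.32 ± 0.28, and without replicate 6 of the untreated del337TR group the Tcf21 difference was -0.32.

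WY14643 was compared with no treatment in control hearts as well. No member passed limma's test (0% of all probe sets were called), and there was none of 11 with an unadjusted p under 0.05 (6.75% of all) and no groups that separated (0.0866% of all). Pdgfra stood at -0.30 ± 0.22 (SE, n = 7 per group, 95% interval -0.74 to 0.14) and Tcf21 at -0.23 ± 0.15 (interval -0.55 to 0.08). Lum stood at 0.17 ± 0.16, Dcn at 0.039 ± 0.079, Postn at -0.052 ± 0.17 and Ddr2 at -0.088 ± 0.12. The other Ddr2 probe set, 1422738_at, was nearly as bright (mean signal 233 against 239) and stood lower, at -0.24 ± 0.14. On it 4 of 7 treated hearts lay below every untreated control. Over all 11 probe sets 2 stood above 0, against 44.6% of all. Directions of Dcn and Postn are not settled, because Dcn stood at -0.098 with quantile normalization and Postn at 0.0082 with centred arrays. Whether WY14643 acted differently in the strains was tested as an interaction, the effect in del337TR less that in controls, and no member passed (lowest adjusted p = 0.959, 0% of all probe sets called) or had an unadjusted p under 0.05 (4.9% of all). It was -0.22 ± 0.21 for Tcf21 (interval -0.66 to 0.23), -0.12 ± 0.30 for Pdgfra (interval -0.75 to 0.50) and -0.25 ± 0.22 for Lum (interval -0.70 to 0.20), and between -0.055 and 0.063 for the other genes. Over all 11 probe sets 7 stood above 0, against 55.6% of all.

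**Figure D2:**
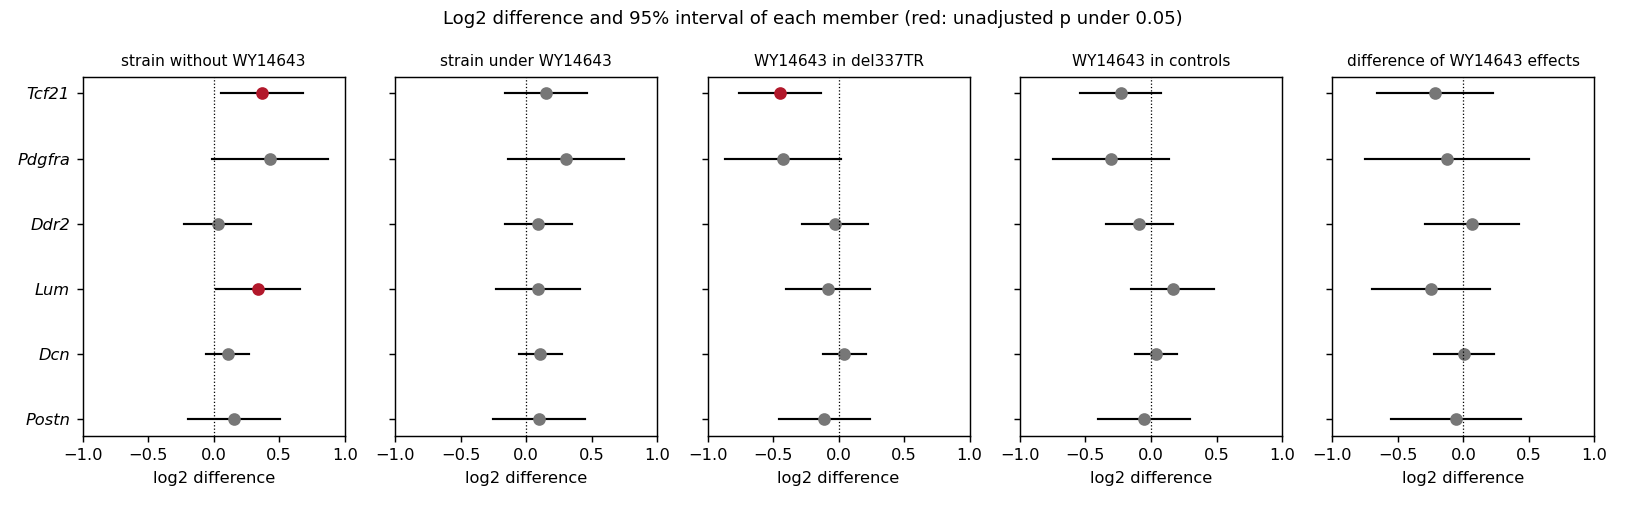
Log2 difference (point) and 95% interval (line) of the brightest probe set of each gene in the 5 comparisons, n = 7 hearts per group, with red points for an unadjusted p under 0.05. All points lie right of 0 in both strain comparisons, and Tcf21 (-0.45) and Pdgfra (-0.43) lie farthest left for WY14643 in del337TR.

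Probe sets of the same gene gave different answers. In the strain comparison without WY14643 the 5 dimmer probe sets stood at 0.05 ± 0.18 for Tcf21, -0.026 ± 0.15 and -0.014 ± 0.29 for Pdgfra, -0.079 ± 0.14 for Ddr2 and -0.16 ± 0.38 for Dcn (SE, n = 7 per group), so that 7 of 11 probe sets stood above 0, against 47.8% of all. Under WY14643 10 of 11 stood above 0, against 55.6% of all, the exception being the dim Dcn probe set. For WY14643 in del337TR the dimmer Tcf21 probe set stood at 0.00074 ± 0.18 and those of Pdgfra at -0.011 ± 0.15 and 0.14 ± 0.29. When all probe sets of a gene were averaged, the Tcf21 differences became 0.21 in the strain comparison without WY14643 and -0.22 for WY14643 in del337TR, and the Pdgfra differences became 0.13 and -0.099 in the same comparisons. The sources used here do not give the part of the transcript that each probe set reads.

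**Figure D3:**
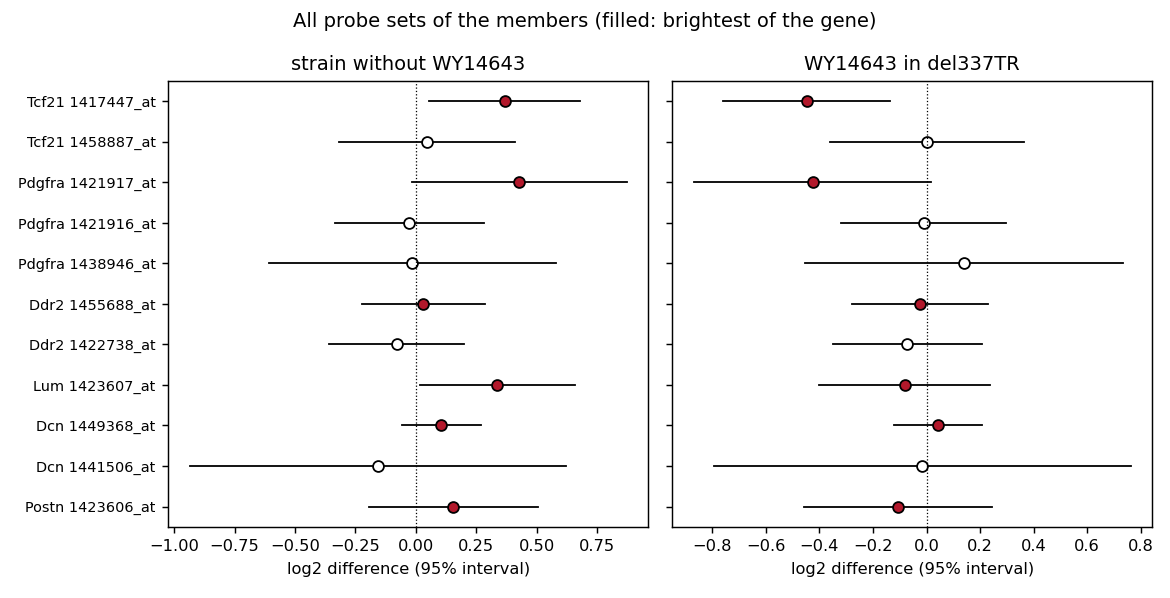
Log2 difference and 95% interval of all 11 probe sets for del337TR against control without WY14643 (left) and for WY14643 against no treatment in del337TR (right), n = 7 hearts per group. The filled points of Tcf21 and Pdgfra lie away from 0, and the open points of the same genes lie near it.

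Genes around the members were read from lists by role, each gene by its brightest probe set, and in none of the lists did a gene pass limma's adjusted threshold in any comparison. The lists were chosen with earlier results of these data known. Genes of a list were read in the same hearts and can vary together, so its counts are descriptions and not separate observations. In the strain comparison without WY14643, 9 of 10 other small leucine-rich proteoglycans stood above 0 (median 0.14), as did 5 of 6 further genes of the PDGF system (median 0.15), 9 of 9 relatives of periostin and matricellular genes (median 0.19), 9 of 11 genes of myofibroblast activation (median 0.11) and 13 of 17 other markers of resting fibroblasts (median 0.15). Fibrillar collagens and their receptors did not lean one way, with 5 of 9 above 0 and a median of 0.015. Among the proteoglycans, Ogn, which encodes mimecan, stood at 0.22 ± 0.10 (SE, n = 7 per group). Among the other markers of resting fibroblasts, Fbln2, which encodes the matrix protein fibulin 2, stood lowest, at -0.31 ± 0.12, against the lean of that list. Among males only the counts were lower, at 6 of 10 for proteoglycans, 3 of 6 for the PDGF system, 8 of 9 for matricellular genes, 5 of 11 for myofibroblast genes and 10 of 17 for resting fibroblast markers. Their medians in males were 0.039, 0.043, 0.38, -0.004 and 0.085 in that order, so that of the matricellular genes was larger than over all hearts.

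The strain comparison under WY14643 was read in the same lists, and whether its values differ from those without treatment was not tested per list. Counts of genes above 0 are again descriptions, since the genes of a list share the same hearts. All 17 other markers of resting fibroblasts stood above 0 in del337TR (median 0.25), as did all 9 collagen genes and receptors (median 0.28) and all 9 matricellular genes (median 0.36), against 53.6% of all genes, while myofibroblast genes (4 of 11, median -0.053), proteoglycans (5 of 10, median 0.075) and the PDGF system (3 of 6, median -0.045) did not lean that way. With centred arrays 16 of 17 resting fibroblast markers stood above 0, and their median was 0.17 under WY14643 and 0.16 without it. Ccn2, connective tissue growth factor, stood at 1.197 ± 0.39 (SE, n = 7 per group), Thbs4 and Thbs1, which encode thrombospondins, at 1.07 ± 0.36 and 0.80 ± 0.39, Lamc1, a laminin chain, at 0.30 ± 0.13 and Fbln2 at 0.27 ± 0.12. For WY14643 in del337TR the lists did not share a direction, with 9 of 17 resting fibroblast markers (median 0.034), 5 of 9 collagen genes and receptors (median 0.026), 6 of 9 matricellular genes (median 0.12), 3 of 10 proteoglycans (median -0.068), 3 of 11 myofibroblast genes (median -0.15) and 1 of 6 genes of the PDGF system (median -0.21) above 0, against 48.9% of all genes. Among males only, 14 of 17 resting fibroblast markers (median 0.21) and 8 of 9 collagen genes and receptors (median 0.22) stood above 0. Matricellular genes then had 6 of 9 (median 0.084), proteoglycans 4 of 10 (median -0.09), myofibroblast genes 5 of 11 (median -0.045) and the PDGF system 1 of 6 (median -0.22). Over all hearts in that comparison the ligand gene Pdgfb stood at -1.57 ± 0.56 and the receptor gene Pdgfrb at -0.42 ± 0.20, beside Pdgfra. Fbln2 stood at 0.40 ± 0.12 there, opposite to Tcf21, and Tagln, a smooth muscle and myofibroblast gene, at -0.75 ± 0.32. For WY14643 in controls, 3 of 17 resting fibroblast markers, 1 of 9 collagen genes and receptors and 1 of 6 genes of the PDGF system stood above 0, against 44.9% of all genes. Proteoglycans had 3 of 10 above 0 (median -0.056) and matricellular genes 3 of 9 (median -0.042). Myofibroblast genes did not lean down, with 6 of 11 above 0 (median 0.13). Mfap5, a microfibril gene, stood at -0.32 ± 0.15.

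Markers of other cells were also uneven between groups, and their part in the members' differences was not tested, apart from the atrial values given further on. Atrial markers were above 0 in del337TR against control, with 5 of 5 and a median of 1.77 without WY14643 and 5 of 5 and a median of 0.91 under it, and their summed signal ran from 9246 to 51588 in treated and from 12771 to 50296 in untreated del337TR hearts, against 3623 to 31491 in treated and 9495 to 34819 in untreated controls. Adipocyte markers, with 5 of 7 measured, were above 0 without WY14643 in 4 (median 0.50) and below 0 for WY14643 in del337TR in 4 (median -1.08), the comparison in which Tcf21 and Pdgfra were lowest. Of these 5 adipocyte markers 2 were dim, with a mean signal under the 40th percentile of all probe sets. Between strains under WY14643 only 1 of 5 adipocyte markers was above 0 (median -0.73), where the brightest probe sets of all 6 members were above 0, and the adipocyte sum ran from 446.2 to 687.2 in treated and from 669.7 to 993.5 in untreated del337TR hearts, against 536.4 to 844.7 in treated and 526.2 to 1102.6 in untreated controls. Epicardial and mesothelial markers had 7 of 10 above 0 in both strain comparisons (medians 0.12 without and 0.23 under WY14643), with sums from 1201 to 1689 in treated and 1151 to 1574 in untreated del337TR hearts, against 713.2 to 1350.5 in treated and 1068 to 1445 in untreated controls. Endothelial markers (5 of 10 above 0 in both) and leukocyte markers without WY14643 (6 of 11) were nearer to even, and leukocyte markers under it had 9 of 11 above 0. Mural cell markers had 6 of 9 above 0 without WY14643 and 4 of 9 under it. Schwann cell and erythroid markers, with 4 and 3 genes measured, had 1 gene each above 0 without WY14643 and 2 each under it, and ventricular markers 9 of 9 (median 0.034) and 4 of 9. Basic helix-loop-helix relatives and partners of Tcf21 had 4 of 8 above 0 without WY14643 and 2 of 8 under it, and Hand2 among them stood at -0.86 ± 0.30 for WY14643 in del337TR.

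Sex and atrial content differed between hearts of a group, and no member passed the adjusted test for either. With the groups fitted beside sex, the Lum value of females less that of males was 0.36 ± 0.10 on the log2 scale (SE, 10 females and 18 males, limma adjusted p = 0.557), which did not pass over all probe sets, where 0.0777% were called. Lum averaged 3488 in 4 female and 2783 in 3 male untreated del337TR hearts, and 3399 in 2 female and 2238 in 5 male untreated control hearts, and in both groups every female lay above every male. Among treated controls the sexes overlapped, with 2744.2 to 3146.7 in 3 females and 1965.5 to 3394.2 in 4 males, and the 1 treated del337TR female, at 4071.5, lay above all 6 males of its group. With sex in the fit the Lum difference between strains without WY14643 was 0.23, against 0.34 without it. Sex terms of the other 5 genes lay between -0.0036 ± 0.063 for Dcn and 0.21 ± 0.13 for Postn.

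Postn, which heart valves also express in mouse, had the steepest slope of the members on the atrial markers. With the groups fitted, the slope of Postn was 0.064 ± 0.020 log2 for each log2 unit of the mean of Myl4, Myl7 and Sln (SE, n = 28, limma adjusted p = 0.384), which did not pass over all probe sets, where 0.0844% were called. The slopes of the other 5 genes lay between -0.027 ± 0.021 for Lum and 0.025 ± 0.021 for Tcf21. With the atrial mean in the fit the Postn difference between strains without WY14643 was -0.0029, against 0.16 without it, and the direction of this small difference therefore turned. No member passed for the ratio of the actin probe sets at the 3' and 5' ends, where 0.469% of all probe sets were called.

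**Figure D4:**
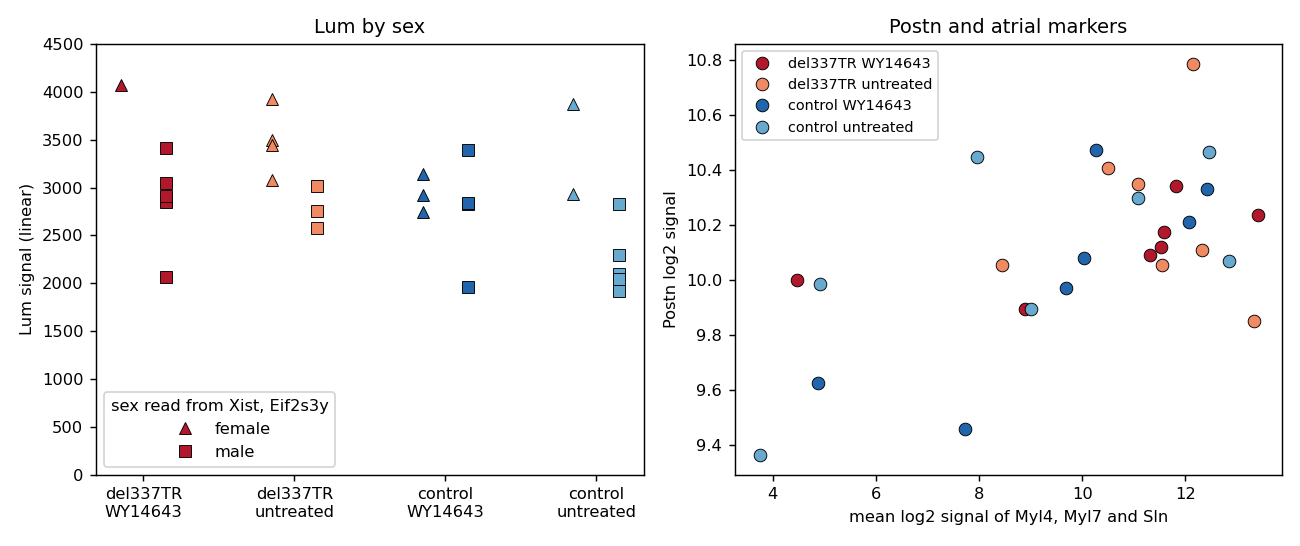
Left, linear Lum signal in each heart by group, with triangles for females and squares for males. Right, log2 Postn signal against the mean log2 signal of 3 atrial genes, coloured by group. Female hearts lie above all males of their group except among treated controls, and the 3 lowest Postn signals belong to control hearts in the left part of the right panel.

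Whether the members varied together from heart to heart was asked after each group's mean was removed. Of 15 pairs, 13 correlated above 0, the median Pearson r was 0.26 and the range was -0.19 to 0.52 over 28 hearts. With 13334 other genes, the median r of a member ran from -0.052 for Dcn to 0.027 for Pdgfra. The 95th percentile of these r ran from 0.37 for Ddr2 to 0.42 for Lum. Members ranked from 105th (Lum in the order of Ddr2) to 11234th (Dcn in the order of Postn). In the order of Tcf21, Pdgfra ranked 637th and the other members from 1800th to 4074th. No pair passed the permutation test after adjustment over the 15 pairs. The highest was Lum with Ddr2 (r = 0.52, permutation p = 0.00385, adjusted p = 0.0577, Spearman rho = 0.50, adjusted permutation p = 0.055), and r was 0.30 without the 2 hearts farthest from the median of Lum. Tcf21 with Pdgfra had r = 0.42 (permutation p = 0.0262, adjusted p = 0.194, rho = 0.41, adjusted permutation p = 0.141), and r was 0.31 without the 2 hearts farthest for Tcf21. Within groups this pair ran from -0.79 in treated del337TR hearts and 0.52 in untreated del337TR hearts to 0.81 in treated and 0.77 in untreated controls, with 7 hearts each, so the sign was not shared by all groups. Lum with Postn had r = 0.39 (permutation p = 0.0389, adjusted p = 0.194, rho = 0.51, adjusted permutation p = 0.055) and 0.51 without the 2 hearts farthest for Lum. Lum and Dcn, neighbours on chromosome 10, had r = 0.24 (permutation p = 0.223, adjusted p = 0.371), and r with quantile normalization was -0.18. Dcn with Postn was lowest, at r = -0.19 (permutation p = 0.338, adjusted p = 0.507). In 5 of the 15 pairs r was above 0 in all 4 groups.

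**Figure D5:**
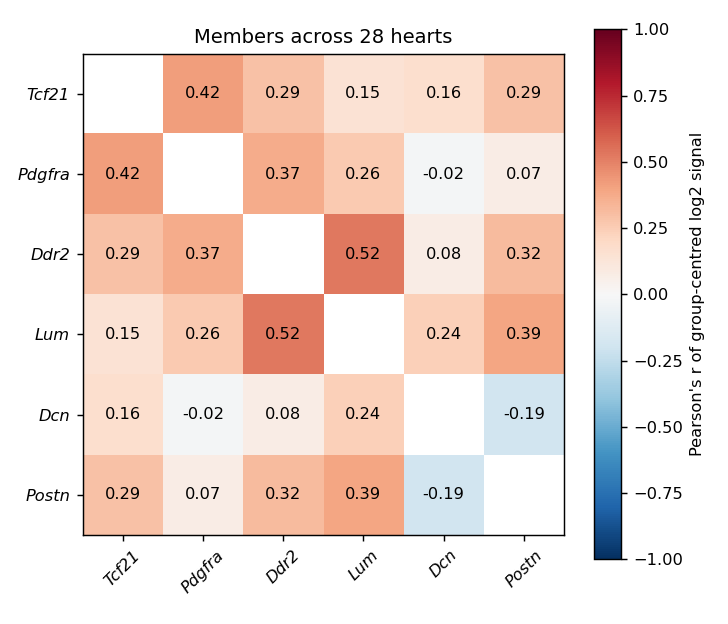
Pearson's r between the log2 signals of the 6 genes over 28 hearts after each group's mean was subtracted, on a colour scale from -1 to 1. Lum with Ddr2 is highest at 0.52 and Dcn with Postn lowest at -0.19.

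The genes whose pattern was most like each member were sought among 13334 others, over the 28 hearts with group means removed. Each is the highest of that many, so r is given as a description, with no test. Postn was followed most closely by Alox8 (r = 0.81), Sema3d (0.76), which encodes a secreted semaphorin, and Myo1d (0.76), and then by Pi16 (0.71) and Thy1 (0.70), both on the list of other resting fibroblast markers. Without the 2 hearts farthest for Postn these were 0.75, 0.71, 0.68, 0.58 and 0.67. Alox8 and Sema3d were dim, with mean signals of 53.1 and 98.65, where array medians ran from 60.0 to 77.8. Lum was followed by Pcolce2 (r = 0.77, and 0.73 without the 2 farthest hearts), an enhancer of procollagen processing, Syap1 (0.76), Cap2 (0.76), Itih5 (0.76), a hyaluronan-binding matrix protein gene, and Pcsk6 (0.75), a proprotein convertase. Tcf21 was followed by Phlda1 (0.80), Clic1 (0.79) and Rrad (0.74), which encodes a small GTP-binding protein, and then by Cdc42ep3 (0.71) and Phldb2 (0.71), and these were 0.64, 0.61, 0.60, 0.50 and 0.49 without the 2 hearts farthest for Tcf21. Pdgfra was followed by Gm8273 (0.72), Arid5b (0.71), Prkab2 (0.71), Atxn1l (0.70) and Fam13a (0.70), and Ddr2 by Rnf113a2 (0.70), Tmem107 (0.69), Lacc1 (0.68), Iqgap1 (0.68) and Antxr1 (0.67). The probe set of Gm8273 was also dim, with a mean signal of 95.6. Dcn was followed by Eef1a1 (0.83), a translation factor, Prdx2 (0.80), Gnas (0.78), Myom2 (0.78), a sarcomere gene, and Gsn (0.77), whose probe sets had mean signals from 7257 to 12726. The closest pair of members, Lum and Ddr2, ranked 215th in the order of Lum and 105th in that of Ddr2.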

How the data were processed

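Total RNA of frozen mouse hearts was made into biotin-labelled cRNA, per the labels' protocols, with 1 array per animal. The deposited values are linear intensity values, 1 per probe set and array, up to 26183.2. The submitters' processing notes name RMA, but the values are not on a log scale and every array has the same mean of 250 with 2% trimmed at each end, so they were taken as globally scaled signals. The genome build is not given in the sources used here. Signals at 0 (3 values) were set to 0.1, the lowest above 0, and log2 was taken.

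Group means of all 28 arrays were fitted in R 4.3.3 by the lmFit, contrasts.fit and eBayes steps of limma 3.58.1, which leaves 24 residual degrees of freedom. P values are two-sided and adjusted by Benjamini and Hochberg over all 45037 probe sets, with a threshold of 0.05. The table holds 45101 probe sets, of which 64 are controls and were left out. One symbol belonged to 34945 of those tested, several to 932 and none to 9160. For each gene the brightest probe set, by its mean over all arrays, was the main one. Correlations were tested by two-sided permutation with 100000 resamples (scipy 1.17.1). Values with group means removed were shuffled over all 28 arrays and not within groups. The 4 means removed were thus not allowed for, which makes these p values somewhat low. No arrays were identical. Of 154 entries in 17 gene lists 142 were measured. The genes named were all probe sets of the 6 members, the 5 most alike genes of each member among genes above the 40th percentile of signal, and up to 4 genes of a list with the smallest p in a comparison. The members and lists were chosen with earlier results of these data known. The fit was tested on simulated data.

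Alternatives were 16 added to each signal, dim probe sets left out, trended and robust moderation, quantile normalization, centring on array medians, only the 2 groups compared, a replicate block, covariates for sex, atrial markers and the actin ratio, averaged probe sets, and each array left out in turn. Males only was chosen after seeing the data.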

Additional observations from a re-analysis of the deposited data

Results flagged for a closer look

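Linear signals were searched for far hearts. Among 44 sets of 7 hearts, which are the 11 probe sets in 4 groups, 1 held a single far heart. Tcf21 (1417447_at) read 1123.4 in replicate 6 of the untreated del337TR group, where the next highest heart read 763.6 and the lowest 523.6. The gap to the next heart was 0.6 of the range of the group, above Dixon's critical value for 7 values, which chance passes in about 1 in 20 sets. That heart was female and also had the highest signal of its group for both Ddr2 probe sets, 301.3 and 313.8, and for the Pdgfra probe set 1421916_at, 211.0. The fits used log2, on which the search was not run, and the flag depends on the scale. On log2 the same 3 Tcf21 values were 10.13, 9.58 and 9.03. The Pdgfra probe set 1438946_at read 4.14 on log2 in replicate 1 of this group, with the next lowest heart at 6.09 and the highest at 7.04.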

How the results depend on the processing

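The count of members called by limma at the adjusted threshold was 0 in all 5 comparisons under every alternative run, including the fits that leave out a single array. Replicate numbers are shared between groups, and the sample titles do not say what they stand for. Deviations of same-numbered arrays correlated by -0.12 to 0.19 (median 0.034), against a median of -0.0033 for different numbers. Of 28 arrays 9 matched best an array of the same number, and no chance rate was computed, so these values cannot decide whether the numbers mark pairs. The main fit did not take them as pairs, and with the replicate block the count of called members was also 0. The strain differences of Tcf21, Pdgfra, Lum and Dcn without WY14643 kept their sign in all alternatives except that of Dcn at -0.026 with averaged probe sets. Small differences turned, and the cause was not tested. In the strain comparison without WY14643, Postn was -0.0029 with the atrial covariate, and Ddr2 was -0.024 with averaged probe sets and -0.017 in males only. For WY14643 in controls, Dcn was -0.098 with quantile normalization and -0.020 with averaged probe sets, Postn 0.0082 with centring and Ddr2 0.047 in males only. For WY14643 in del337TR, Dcn was -0.0308 with quantile normalization, Lum 0.073 and Ddr2 0.0090 with the sex covariate, and in males only Lum was 0.028, Dcn -0.037, Postn 0.071 and Ddr2 0.070. For the difference of the WY14643 effects, Dcn was -0.094 and Ddr2 -0.035 with centring, Postn 0.067 with the sex covariate, Dcn -0.00456 and Postn 0.050 with the atrial covariate, Dcn -0.00316 and Postn 0.000174 with the actin ratio, Pdgfra 0.056 with averaged probe sets, and in males only Tcf21 was 0.097, Dcn -0.052 and Postn 0.21. With single arrays left out, signs also turned within the ranges -0.00044 to 0.071 (Dcn) and -0.17 to 0.041 (Postn) for WY14643 in controls, -0.055 to 0.044 (Ddr2) and -0.16 to 0.0061 (Lum) for WY14643 in del337TR, -0.039 to 0.10 (Ddr2) for the strains without WY14643, and -0.028 to 0.044 (Dcn), -0.0061 to 0.13 (Ddr2), -0.24 to 0.0024 (Pdgfra) and -0.15 to 0.063 (Postn) for the difference of effects. Among correlations, 1 pair passed after adjustment with quantile normalization and 1 with centring, against 0, in both cases Lum with Ddr2 (r = 0.57 and 0.59). The permutation did not allow for the group means removed, so its p values are somewhat low. With quantile normalization r was 0.35 for Pdgfra with Dcn, -0.18 for Lum with Dcn and 0.0019 for Dcn with Postn, and with centring 0.21 for Pdgfra with Dcn. The dim probe sets 1441506_at (Dcn) and 1438946_at (Pdgfra) had the widest intervals.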
